A study of Homo sapiens with 9 samples.

Results

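The transcripts of 10 mitophagy receptors and regulators were followed across 9 mRNA-seq libraries of HaCaT cells, an immortalised keratinocyte line derived from human epidermis. The genes were PINK1, BNIP3, BNIP3L, FUNDC1, FKBP8, PHB2, BCL2L13, NIPSNAP1, USP30 and PGAM5. They were taken by symbol, mapped from Ensembl identifiers, out of a deposited table of 20263 genes, and all 10 were found. The first group held 3 libraries of cells laden with melanosomes and treated with glabridin, an isoflavan of licorice root. The next held 3 libraries of melanosome-laden cells without glabridin, and the last held 3 libraries of control cells, labelled WT. Cells given glabridin without melanosomes were not among the groups, so each glabridin library also carries the melanosome load. Glabridin dose, exposure times and the source of the melanosomes, the pigment organelles that melanocytes hand to keratinocytes, are stated neither in the labels nor in the file headers. By the series design, the groups were set up to ask how glabridin acts on the breakdown of melanosomes. Whether replicates came from separate cultures is not labelled, and p-values therefore speak only to the spread among the libraries, which could be technical.

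Mitophagy is the removal of whole mitochondria by autophagy. In the ubiquitin route, the kinase PINK1 builds up on damaged mitochondria, phosphorylates ubiquitin and so promotes the tagging of outer membrane proteins, and the deubiquitinase USP30 works against it. In the receptor route, proteins anchored in the outer mitochondrial membrane, among them BNIP3, BNIP3L, FUNDC1, FKBP8 and BCL2L13, bind LC3-family proteins on the growing autophagosome directly. PHB2 of the inner membrane and NIPSNAP1 of the matrix become exposed on damaged organelles and mark them, and the phosphatase PGAM5 activates FUNDC1 and helps to keep PINK1 stable. In epidermis, BNIP3 and BNIP3L are known for their part in the loss of organelles as keratinocytes differentiate.

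Deposited counts summed to 42582054 to 46591852 per glabridin library, 39653425 to 46690787 per melanosome library and 41793696 to 45839573 per control library. Among counts of 1 to 49, 69.9% to 72.2% were even, against 48.7% to 51.1% of counts over 500, and whether both reads of a pair were counted is not given. The 3 glabridin libraries differed most among themselves, with a chi-square per gene of 26.8 to 88.8 between pairs, against 4.07 to 12.6 for melanosome pairs and 2.99 to 4.87 for control pairs. Summed over 8 keratinocyte markers, the libraries held 7057 to 9692 CPM in the glabridin group, 11830 to 12900 CPM in the melanosome group and 15970 to 16280 CPM in the control group. Summed over 12 melanocyte markers, they held 1735 to 3443 CPM in the glabridin group, 3158 to 3284 CPM in the melanosome group and 29.2 to 32.2 CPM in the control group, where TYR, TRPM1 and OCA2 were at 0. The part of those transcripts in the values below was not tested. Both sums are carried by their most abundant genes, and single markers did not all move alike. Between glabridin and melanosome libraries, 3 of the 8 keratinocyte markers were lower, 1 higher and 4 not called at an edgeR adjusted p under 0.05. Of the 12 melanocyte markers, 5 were lower, 0 higher and 7 not called. In bulk libraries, fewer cells of a type and less RNA per cell cannot be told apart.

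The promoter windows of 3 members are shown because BNIP3 and USP30 were lower, and PGAM5 higher, with glabridin than with melanosomes alone under each processing tried. BNIP3L was lower in the same way, but no window of it was used here. Each window holds the 250 bases before a RefSeq transcription start on GRCh38.p14, written 5′ to 3′ on the gene's own strand. Capitals mark ACGTG, a form of the core bound by hypoxia-inducible factors, read on either strand. Other forms of that core, such as GCGTG, were not searched. BNIP3 lies at chr10:131981924-131982173 on the minus strand, USP30 at chr12:109052326-109052575 on the plus strand and PGAM5 at chr12:132710592-132710841 on the plus strand.
BNIP3: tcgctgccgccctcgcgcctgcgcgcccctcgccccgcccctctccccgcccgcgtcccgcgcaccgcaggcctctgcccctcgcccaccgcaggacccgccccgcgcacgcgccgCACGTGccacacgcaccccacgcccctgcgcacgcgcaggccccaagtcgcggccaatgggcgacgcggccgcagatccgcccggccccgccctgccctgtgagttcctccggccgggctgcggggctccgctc
USP30: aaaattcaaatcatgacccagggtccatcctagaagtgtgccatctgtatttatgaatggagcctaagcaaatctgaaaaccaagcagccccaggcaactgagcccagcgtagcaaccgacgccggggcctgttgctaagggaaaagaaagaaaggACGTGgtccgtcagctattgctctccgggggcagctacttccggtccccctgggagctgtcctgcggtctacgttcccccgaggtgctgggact
PGAM5: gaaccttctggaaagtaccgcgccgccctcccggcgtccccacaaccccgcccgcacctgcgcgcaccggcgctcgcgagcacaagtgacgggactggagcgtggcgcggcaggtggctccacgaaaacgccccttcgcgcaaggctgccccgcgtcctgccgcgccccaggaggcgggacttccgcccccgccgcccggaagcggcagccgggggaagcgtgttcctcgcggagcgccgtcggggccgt
The BNIP3 window holds CACGTG, 134 to 129 bases before the start, a palindrome that contains ACGTG on both strands. Of the USP30 windows, only the one with ACGTG is printed. It lies before a start inside the gene and holds ACGTG 94 to 90 bases before that start. The other USP30 window, chr12:109022839-109023088, directly before the gene's outermost start, holds no ACGTG, and neither does the PGAM5 window. RefSeq gave 11 windows for 7 of the 10 genes, and of these 11 windows 2 held ACGTG and 1 held CACGTG. Of 35116 windows of the same length over the genome, 18.51% held ACGTG and 6.34% held CACGTG on either strand. The motif TGATGNAA, bound by ATF4 and its partners, was in 3.14% of windows and in 0 of the 7 genes. The share of members' windows with ACGTG was near that of all windows, and matches describe letters and not occupied sites.

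Levels below are CPM (each count as a share of its library's total, with totals scaled by TMM factors), and differences come from edgeR's quasi-likelihood test over 13912 genes, with Benjamini-Hochberg adjustment and calls at an adjusted p under 0.05. All 10 genes passed the filter on low counts. Between glabridin and melanosome libraries, 3 of the 10 were higher (BCL2L13, NIPSNAP1 and PGAM5) and 3 lower (BNIP3, BNIP3L and USP30). Among all genes, 23.7% were called higher and 20.2% lower there, 43.9% in all. Between melanosome and control libraries, 4 were higher (BNIP3, FKBP8, NIPSNAP1 and PGAM5) and 1 lower (PHB2), beside 29.5% of all genes called higher and 33% lower, 62.5% in all. Between glabridin and control libraries, 5 were higher (the same 4 and BCL2L13) and 2 lower (BNIP3L and USP30), beside 37.6% of all genes called higher and 32.7% lower, 70.3% in all. The libraries of the groups did not overlap for 6, 5 and 8 of the 10 genes in these comparisons, beside 50.2%, 76.1% and 73.2% of all genes. With 10 genes, shares this near the background are no result about the list, and the values of its members follow. The median log2 fold change of the members was 0.12, 0.05 and 0.17 in these 3 comparisons, beside 0.01, -0.06 and 0.03 for all genes tested. The comparisons share libraries in pairs and are not independent.

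The counts depended on the scaling and on single libraries. When library totals alone set the scale, 29% of the calls over all genes were higher for glabridin vs melanosome, against 54% with TMM factors, and 66% against 47.2% for melanosome vs control, and the median of all genes moved by -0.18 and 0.17 on the log2 scale. The members called higher were then 1 for glabridin vs melanosome and 7 for melanosome vs control. The members' median log2 fold change was then -0.06 for glabridin vs melanosome, a change of sign, and 0.22 for melanosome vs control. For glabridin vs melanosome, 1 member was higher without melanosome replicate 1 or 2 or glabridin replicate 1. For melanosome vs control, 2 members were higher without control replicate 1 or 2 or melanosome replicate 2 or 3, and 0 were lower without any single control replicate or melanosome replicate 3. For glabridin vs control, 1 was lower without control replicate 2. The lower calls of BNIP3, BNIP3L and USP30 and the higher call of PGAM5 for glabridin vs melanosome were made in each of the 14 alternatives.

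**Figure D1:**
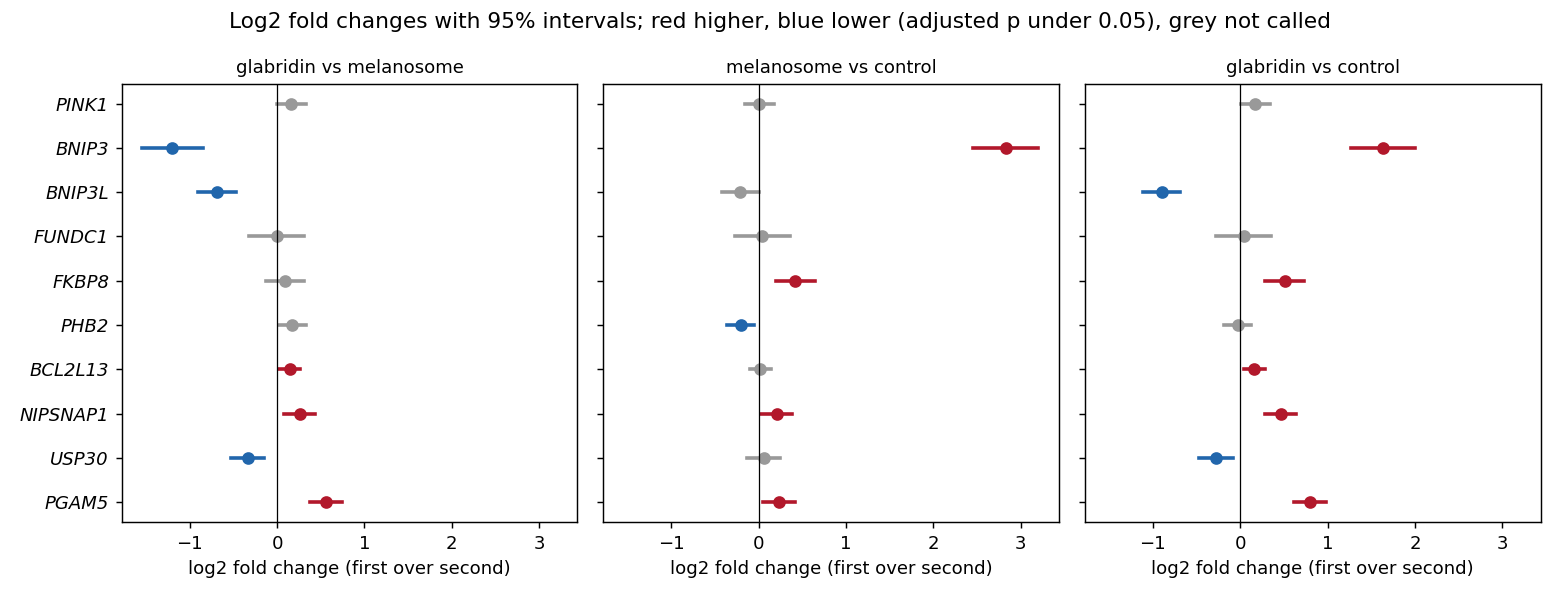
Log2 fold changes of the 10 genes (x axis) in the 3 comparisons, with points for the edgeR estimate, lines for 95% intervals, red for higher, blue for lower and grey for not called. BNIP3 lies farthest from 0 in each panel, at -1.20 for glabridin vs melanosome, 2.83 for melanosome vs control and 1.63 for glabridin vs control.

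BNIP3 and BNIP3L encode closely related outer membrane receptors and are both known targets of hypoxia-inducible factors. BNIP3 (ENSG00000176171, chromosome 10, 131966455 to 131982013, GRCh38) was at 14.9, 22.3 and 13.6 CPM in glabridin libraries, at 38.8, 39.5 and 38.2 CPM in melanosome libraries and at 5.66, 5.27 and 5.46 CPM in control libraries. The 3 groups did not overlap, with the melanosome group highest and the control group lowest. BNIP3 was 2.29-fold lower in glabridin than in melanosome libraries, a log2 fold change of -1.20 ± 0.16 (SE, edgeR adjusted p = 0.000153). It was 7.10-fold higher in melanosome than in control libraries (log2 fold change 2.83 ± 0.17, SE, edgeR adjusted p = 2.25e-07), and 7.03% of all genes had a larger change in either direction. Glabridin libraries stayed above control by 3.10-fold (log2 fold change 1.63 ± 0.17, SE, edgeR adjusted p = 7.42e-06). Glabridin replicate 2, which had the highest BNIP3 level of its group, also had the highest marker sums of its group, 3443 CPM for melanocyte markers against 2113 and 1735 CPM in replicates 1 and 3, and 9692 CPM for keratinocyte markers against 7790 and 7057 CPM. Without it, BNIP3 differed by -1.44 on the log2 scale between glabridin and melanosome libraries. GENCODE release 29 names 39 pseudogenes of BNIP3 and 1 each of PHB2 and PGAM5, none of them in the count table, and reads shared with such copies could have been lost or moved in the authors' counting.

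**Figure D2:**
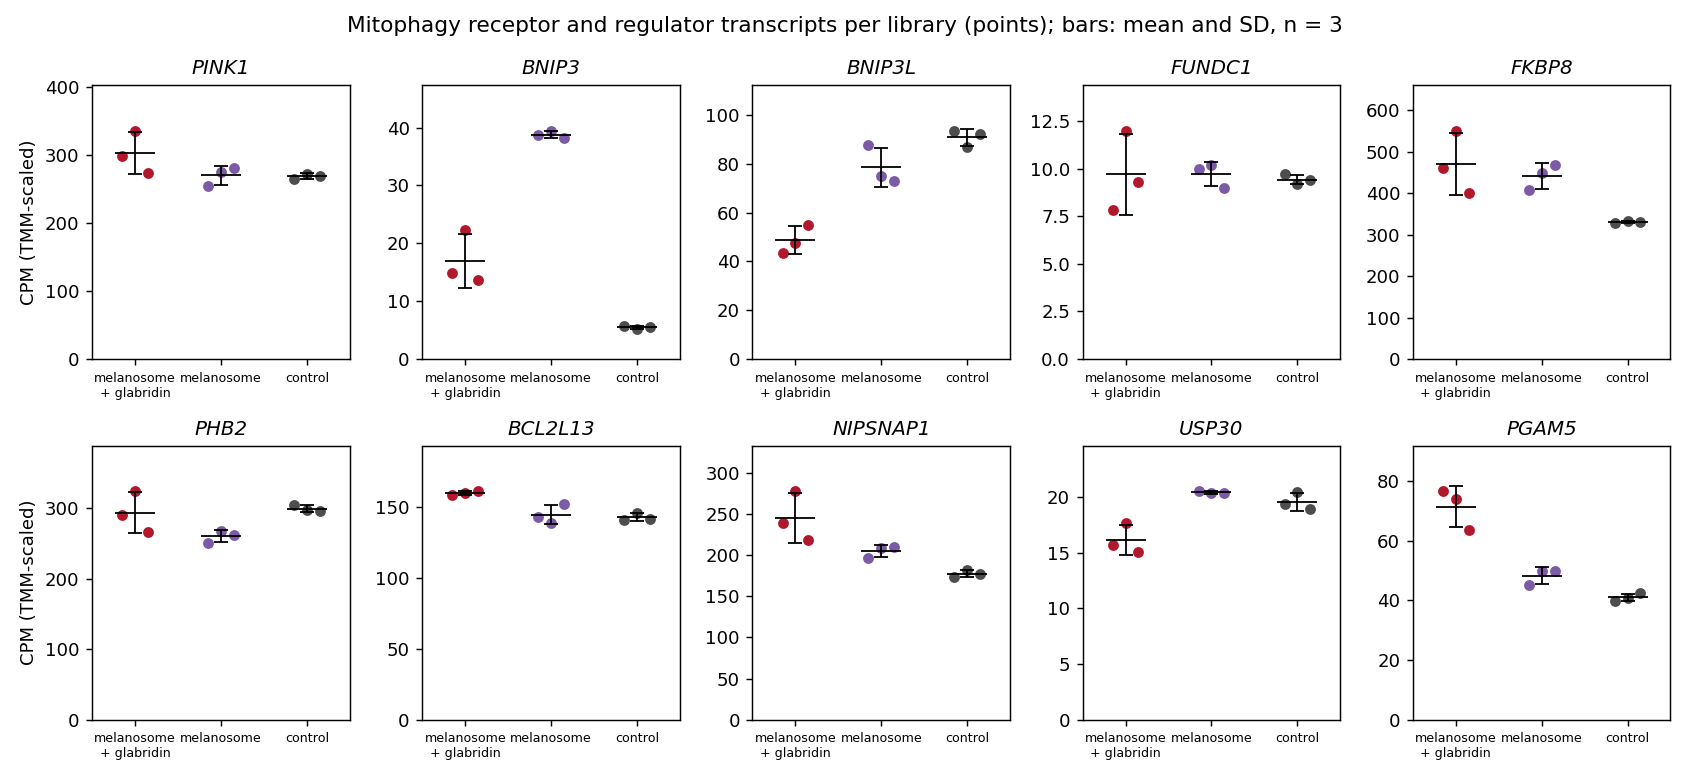
CPM on TMM-scaled library sizes (y axis, from 0) of each of the 10 genes in the 9 libraries, as points, with the mean and SD of 3 libraries. For BNIP3 the 3 melanosome libraries lie at 38.2 to 39.5 CPM, above all glabridin and control libraries, and for BNIP3L the 3 glabridin libraries lie at 43.5 to 54.8 CPM, below all others.

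BNIP3L, also called NIX, which clears mitochondria from maturing red blood cells, had another order of groups. BNIP3L (ENSG00000104765, chromosome 8, 26382898 to 26505636) was at 43.5, 47.7 and 54.8 CPM in glabridin libraries, at 87.6, 75.1 and 72.7 CPM in melanosome libraries and at 93.5, 86.7 and 92.0 CPM in control libraries. Every glabridin library lay below every other library, while the melanosome and control ranges overlapped. BNIP3L was 1.61-fold lower with glabridin than with melanosomes alone (log2 fold change -0.69 ± 0.10, SE, edgeR adjusted p = 0.000257) and 1.86-fold lower than in control (-0.90 ± 0.10, SE, edgeR adjusted p = 1.2e-05). Between melanosome and control libraries the change was -0.21 on the log2 scale (95% interval -0.42 to 0.00, edgeR adjusted p = 0.079), and -0.30 without melanosome replicate 1 (edgeR adjusted p = 0.0276). The latter was the only call in 14 alternatives, where the change was as small as -0.03. PNMA2, a gene within the BNIP3L locus on the opposite strand, had at most 232 counts in any library, beside 1899 to 4521 counts for BNIP3L.

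Within each library, transcripts of the pair were compared as a ratio of TPM, a unit corrected for transcript length. BNIP3 over BNIP3L was 0.302 ± 0.0939 in glabridin, 0.426 ± 0.0407 in melanosome and 0.0514 ± 0.000691 in control libraries (SD, n = 3 each). Glabridin values of 0.213 to 0.400 overlapped melanosome values of 0.379 to 0.449, and both groups lay above the control values of 0.0506 to 0.0520. BNIP3 thus remained the less abundant transcript of the pair in all 9 libraries. With 3 libraries against 3, an exact permutation test cannot give a two-sided p below 0.1, so the ratios are given without a test.

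**Figure D3:**
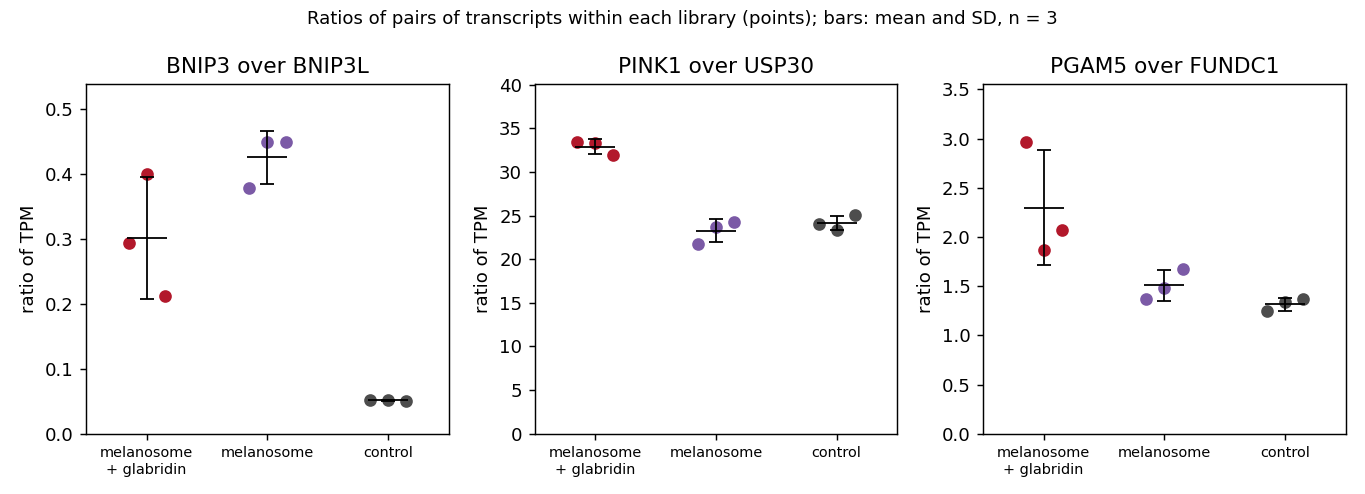
Ratios of TPM within each library (y axis, from 0) for 3 pairs of genes, as points, with the mean and SD of 3 libraries per group. BNIP3 over BNIP3L lies at or above 0.213 in glabridin and melanosome libraries and at or below 0.0520 in control libraries, and PINK1 over USP30 lies at 31.9 to 33.4 with glabridin, against at most 25.0 elsewhere.

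PINK1 and USP30 sit on opposing sides of the ubiquitin route. PINK1 (ENSG00000158828, chromosome 1, 20633455 to 20651511) was at 298, 336 and 274 CPM in glabridin libraries, at 254, 275 and 281 CPM in melanosome libraries and at 264, 273 and 269 CPM in control libraries. Only in the glabridin replicates 1 and 2 did it exceed every library without glabridin. The log2 fold change was 0.16 against melanosome (95% interval 0.00 to 0.33, edgeR adjusted p = 0.097) and 0.17 against control libraries (0.01 to 0.34, edgeR adjusted p = 0.0589). Without glabridin replicate 3 these were 0.23 (edgeR adjusted p = 0.00972) and 0.24 (edgeR adjusted p = 0.00457), both calls. The difference from melanosome libraries was called in only 1 of the 14 alternatives, and ran from -0.02 to 0.23, so its direction depended on the processing. In TPM, PINK1 averaged 294 in glabridin and 299 in melanosome libraries. The difference from control was also called on library totals alone (0.16, edgeR adjusted p = 0.0361) and in both limma fits on log2 TPM (0.16, limma adjusted p = 0.0098 and 0.0102). Melanosome libraries differed from control by 0.01 (95% interval -0.16 to 0.17, edgeR adjusted p = 0.938), a value that became 0.17 (edgeR adjusted p = 0.0293) when library totals alone set the scale.

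USP30, the deubiquitinase of the outer membrane, was lower with glabridin. USP30 (ENSG00000135093, chromosome 12, 109023089 to 109088026) was at 15.7, 17.7 and 15.1 CPM in glabridin libraries, at 20.5, 20.4 and 20.3 CPM in melanosome libraries and at 19.3, 20.5 and 18.9 CPM in control libraries. No glabridin library reached the level of any other library. The log2 fold change was -0.34 ± 0.09 against melanosome (SE, edgeR adjusted p = 0.00937) and -0.28 ± 0.09 against control libraries (SE, edgeR adjusted p = 0.0145), the last not called without control replicate 2 (edgeR adjusted p = 0.0605). Melanosome and control libraries overlapped and differed by 0.06 (95% interval -0.13 to 0.25, edgeR adjusted p = 0.563), and by 0.23 on library totals alone (edgeR adjusted p = 0.0313). In TPM, PINK1 over USP30 was 32.9 ± 0.821 in glabridin, 23.2 ± 1.30 in melanosome and 24.1 ± 0.831 in control libraries (SD, n = 3 each), with the glabridin values above all others. Antisense genes overlap PINK1, USP30, BNIP3, FKBP8 and PHB2, and since the counting's use of strand is not given, their reads cannot be told apart from these.

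FUNDC1 and PGAM5 form a receptor and phosphatase pair. PGAM5 (ENSG00000247077, chromosome 12, 132710819 to 132722734) was at 76.6, 74.0 and 63.7 CPM in glabridin libraries, at 45.1, 50.0 and 50.0 CPM in melanosome libraries and at 39.9, 40.7 and 42.4 CPM in control libraries. The 3 groups did not overlap, with glabridin highest and control lowest. PGAM5 was 1.48-fold higher with glabridin than with melanosomes alone (log2 fold change 0.56 ± 0.08, SE, edgeR adjusted p = 0.000319) and 1.74-fold higher than in control (0.80 ± 0.08, SE, edgeR adjusted p = 8.32e-06). The rise of melanosome over control libraries was smaller, 1.18-fold (log2 fold change 0.24 ± 0.08, SE, edgeR adjusted p = 0.0269). Leaving out control replicate 1 or 2, or melanosome replicate 2 or 3, ended that call, at adjusted p = 0.0897, 0.0739, 0.0922 and 0.0864 in this order (edgeR).

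FUNDC1, a receptor of mitophagy under low oxygen, was among the less variable members between groups. FUNDC1 (ENSG00000069509, chromosome X, 44523639 to 44543001) was at 7.81, 12.0 and 9.33 CPM in glabridin libraries, at 10.0, 10.2 and 9.01 CPM in melanosome libraries and at 9.71, 9.20 and 9.40 CPM in control libraries. The glabridin libraries held both the lowest and the highest value. The differences in log2 were 0.00 for glabridin vs melanosome (95% interval -0.32 to 0.31), 0.04 for melanosome vs control (-0.27 to 0.36) and 0.04 for glabridin vs control (-0.28 to 0.36), none called under any of the 14 alternatives. These intervals allow changes of up to about 0.36 on the log2 scale. PGAM5 over FUNDC1 in TPM was 2.30 ± 0.586 in glabridin, 1.51 ± 0.157 in melanosome and 1.32 ± 0.0650 in control libraries (SD, n = 3 each), with every glabridin value above the others.

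FKBP8 and BCL2L13 are outer membrane receptors whose other roles touch cell death, FKBP8 by holding BCL2 at mitochondria and BCL2L13 as a member of the BCL2 family. FKBP8 (ENSG00000105701, chromosome 19, 18531751 to 18544077) was at 459.7, 551 and 401 CPM in glabridin libraries, at 407, 448 and 469 CPM in melanosome libraries and at 328, 332 and 329.9 CPM in control libraries. Both melanosome-laden groups lay above control and overlapped each other. FKBP8 was 1.34-fold higher in melanosome than in control libraries (log2 fold change 0.42 ± 0.10, SE, edgeR adjusted p = 0.00429) and 1.43-fold higher in glabridin than in control libraries (0.51 ± 0.10, SE, edgeR adjusted p = 0.000945). Glabridin and melanosome libraries differed by 0.09 (95% interval -0.13 to 0.31, edgeR adjusted p = 0.491).

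BCL2L13, the mammalian counterpart of the yeast mitophagy receptor Atg32, had small differences in each comparison. BCL2L13 (ENSG00000099968, chromosome 22, 17628855 to 17730855) was at 158, 159.7 and 161 CPM in glabridin libraries, at 143, 139 and 152 CPM in melanosome libraries and at 141, 146 and 141 CPM in control libraries. The glabridin libraries lay above the others on this scale. The log2 fold change against melanosome libraries was 0.14 ± 0.05 (SE, edgeR adjusted p = 0.0477), and it turned to -0.03 on library totals alone (edgeR adjusted p = 0.609), so no direction holds across scalings. It was also not called without melanosome replicate 1 (edgeR adjusted p = 0.113) or 2 (0.187), or without glabridin replicate 1 (0.491) or 3 (0.0632). The higher call held in only 2 of the 14 alternatives. Against control libraries the log2 fold change was 0.16 ± 0.05 (SE, edgeR adjusted p = 0.0174), not called without control replicate 1 (edgeR adjusted p = 0.0663), control replicate 3 (0.0618) or glabridin replicate 1 (0.0535). Melanosome and control libraries overlapped and differed by 0.02 (95% interval -0.10 to 0.14, edgeR adjusted p = 0.765), and by 0.19 on library totals alone (edgeR adjusted p = 0.00905), one of 4 alternatives that called it.

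PHB2 and NIPSNAP1 mark mitochondria from within. NIPSNAP1 (ENSG00000184117, chromosome 22, 29554808 to 29581337) was at 238, 277 and 218 CPM in glabridin libraries, at 196, 209 and 209 CPM in melanosome libraries and at 173, 182 and 177 CPM in control libraries. The groups did not overlap on this scale and stood in that order. In TPM, glabridin replicate 3 at 245.5 lay below the melanosome libraries at 245.8 to 249.6. The difference between glabridin and control libraries was 1.38-fold (log2 fold change 0.46 ± 0.08, SE, edgeR adjusted p = 0.000425). Each step alone was smaller, at 0.26 ± 0.08 for glabridin vs melanosome (SE, edgeR adjusted p = 0.0251) and 0.21 ± 0.08 for melanosome vs control (SE, edgeR adjusted p = 0.0458). The first step was not called in 10 of the 14 alternatives. Among these were library totals alone (0.08, edgeR adjusted p = 0.38), and the fits without glabridin replicate 1 (0.192) or melanosome replicate 1 (0.087), 2 (0.0578) or 3 (0.0543). The step of melanosome vs control was not called without any single control replicate (edgeR adjusted p = 0.128, 0.075 and 0.106 for replicates 1, 2 and 3) or melanosome replicate (0.052, 0.121 and 0.119). THOC5 overlaps NIPSNAP1 on the same strand, with at most 2552 counts in a library, beside 7151 to 11034 counts for NIPSNAP1.

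PHB2, prohibitin 2, is a scaffold of the inner membrane. PHB2 (ENSG00000215021, chromosome 12, 6965327 to 6970825) was at 291, 324 and 267 CPM in glabridin libraries, at 251, 268 and 262 CPM in melanosome libraries and at 305, 298 and 296 CPM in control libraries. The melanosome libraries lay below control, and the glabridin libraries spanned both. The log2 fold change of melanosome vs control was -0.20 ± 0.07 (SE, edgeR adjusted p = 0.0262), against -0.04 on library totals alone (edgeR adjusted p = 0.59). It was also not called without control replicate 1 (edgeR adjusted p = 0.083), 2 (0.061) or 3 (0.0564), or without melanosome replicate 1 (0.0846) or 3 (0.0628). Glabridin libraries differed from melanosome by 0.18 (95% interval 0.02 to 0.33, edgeR adjusted p = 0.0644), called without glabridin replicate 3 (0.24, edgeR adjusted p = 0.00499). That was the only call in 14 alternatives, where the values ran from -0.01 to 0.24. In TPM, PHB2 averaged 392 in glabridin and 396 in melanosome libraries. Glabridin libraries differed from control by -0.03 (95% interval -0.18 to 0.13, edgeR adjusted p = 0.738).

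Levels were compared between genes in TPM. In glabridin libraries FKBP8 averaged 439.8 ± 47.0 TPM and overlapped PHB2 at 392 ± 17.4 TPM, ahead of PINK1 at 294 ± 14.3, NIPSNAP1 at 260.3 ± 18.1, BCL2L13 at 58.8 ± 3.43, PGAM5 at 46.8 ± 3.14, BNIP3L at 30.1 ± 4.83 and FUNDC1 at 21.0 ± 3.88 TPM (SD, n = 3). USP30 at 8.95 ± 0.318 and BNIP3 at 8.85 ± 1.97 TPM overlapped at the low end. In melanosome libraries FKBP8 led at 471 ± 21.1 TPM, above PHB2 at 396 ± 5.49, PINK1 at 299 ± 7.24 and NIPSNAP1 at 248 ± 2.13 TPM (SD, n = 3). There BCL2L13 at 60.4 ± 2.83 overlapped BNIP3L at 55.1 ± 7.26 TPM, and FUNDC1 at 24.0 ± 1.94 overlapped BNIP3 at 23.2 ± 0.781 TPM, with PGAM5 at 36.1 ± 1.09 between the pairs and USP30 lowest at 12.9 ± 0.429 TPM. In control libraries PHB2 was highest at 402.5 ± 3.57 TPM, followed by FKBP8 at 311 ± 4.53, PINK1 at 263 ± 6.20 and NIPSNAP1 at 190.1 ± 6.29 TPM (SD, n = 3). BNIP3L at 56.1 ± 1.90 and BCL2L13 at 52.6 ± 1.37 TPM overlapped next, ahead of PGAM5 at 27.0 ± 1.01, FUNDC1 at 20.5 ± 0.405, USP30 at 10.9 ± 0.497 and BNIP3 at 2.88 ± 0.0755 TPM. PHB2, FKBP8, PINK1 and NIPSNAP1 thus stood above the other 6 genes in each group. BNIP3 made up 0.564% ± 0.0898 of the 10 genes' summed TPM in glabridin, 1.43% ± 0.0652 in melanosome and 0.216% ± 0.00800 in control libraries (SD, n = 3 each). TPM is not TMM-scaled, so its group means can stand in another order than CPM.

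**Figure D4:**
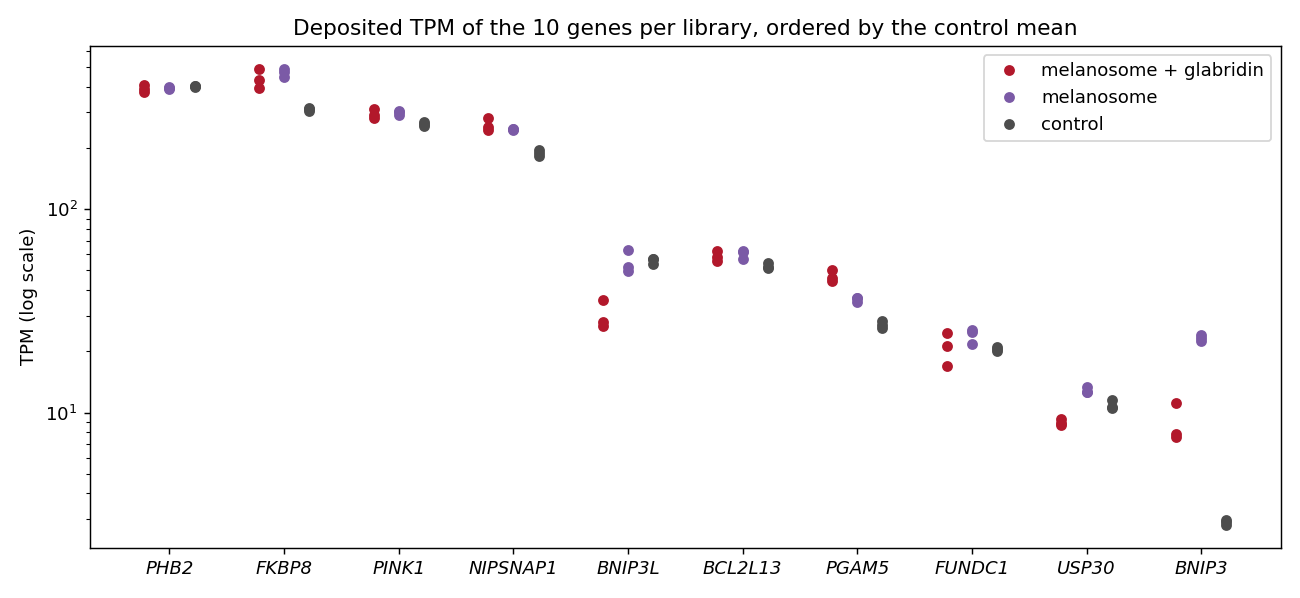
Deposited TPM (y axis, log scale) of the 10 genes in the 9 libraries, as points, ordered by the control mean. PHB2, FKBP8, PINK1 and NIPSNAP1 lie at or above 184 TPM in all libraries, the other genes at or below 63.4 TPM, and BNIP3 shows the widest gap between groups.

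Other genes of the pathway were counted from lists grouped by role. No test over a list was run, so the counts describe single genes only. Among all genes, 23.7% were called higher and 20.2% lower for glabridin vs melanosome. Between glabridin and melanosome libraries, 4 of 10 genes of PINK1 import and processing were higher and 0 lower, 5 of 12 ubiquitin ligases and deubiquitinases were higher and 1 lower, and 3 of 6 ubiquitin-binding adaptors were higher and 0 lower. Of 6 outer membrane substrates 1 was higher and 0 lower, and of 11 partners and regulators of the receptors 8 were higher and 0 lower. This balance rests on the scaling, since on library totals alone the counts were 1 higher and 2 lower, 3 and 4, 1 and 1, 0 and 2, and 4 and 1 for these lists in turn. Without glabridin replicate 1, the higher counts were 2, 3, 1, 1 and 5. Without melanosome replicate 1, the ligases gave 3 higher and 0 lower, and without glabridin replicate 3 the substrates gave 2 higher and 1 lower. With any single glabridin or melanosome library left out, the lower count of each list lay between 0 and 1.

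Among the genes higher with glabridin under each scaling, SQSTM1, the autophagy adaptor p62, was at 825.7, 648 and 775 CPM in glabridin libraries, at 329, 335 and 351 CPM in melanosome libraries and at 330.1, 335 and 331 CPM in control libraries. The glabridin group stood apart, and the other groups overlapped. SQSTM1 was 2.21-fold higher with glabridin than with melanosomes alone (log2 fold change 1.15 ± 0.08, SE, edgeR adjusted p = 2.19e-06). ULK1, the kinase that starts autophagy and phosphorylates FUNDC1, was at 157 ± 34.6 CPM in glabridin and 86.2 ± 5.33 CPM in melanosome libraries (SD, n = 3 each; log2 fold change 0.87 ± 0.13, SE, edgeR adjusted p = 0.000479). SIAH1, a ubiquitin ligase, averaged 15.0 ± 1.93 CPM in glabridin and 6.75 ± 0.675 CPM in melanosome libraries (SD, n = 3 each; 1.16 ± 0.13, SE, edgeR adjusted p = 4.71e-05). ATAD3A, an inner membrane ATPase that takes part in PINK1 import, averaged 54.0 ± 6.60 CPM in glabridin, 38.5 ± 1.90 CPM in melanosome and 22.9 ± 1.26 CPM in control libraries (SD, n = 3 each). It rose in all 3 comparisons, by 0.49 for glabridin vs melanosome, 0.75 for melanosome vs control and 1.24 for glabridin vs control on the log2 scale (edgeR adjusted p = 0.002, 7.32e-05 and 1.04e-06 in this order). RHOT1, the mitochondrial transport GTPase Miro1, had a log2 fold change of 0.41 for glabridin vs melanosome (edgeR adjusted p = 0.00924) that was not called on library totals alone. The deubiquitinase USP8 was called lower for glabridin vs melanosome, with a log2 fold change of -0.49 ± 0.18 (SE, edgeR adjusted p = 0.0464), though the libraries of these groups overlapped.

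Between melanosome and control libraries, 2 of 10 import genes were higher and 3 lower, 1 of 12 ligases and deubiquitinases was higher and 5 lower, 0 of 6 adaptors were higher and 4 lower, 2 of 6 substrates were higher and 1 lower, and 2 of 11 partners were higher and 2 lower. The shares of all genes called there were 29.5% higher and 33% lower. On library totals alone the ligases gave 2 higher and 2 lower, the adaptors 0 higher and 2 lower, and the partners 3 higher and 1 lower. The lower count of the ligases was 3 without control replicate 1 or 2 or melanosome replicate 1, and 2 without melanosome replicate 2. The higher count of the substrates was 1 without control replicate 1 or 3 or melanosome replicate 2 or 3. TAX1BP1, an adaptor that binds ubiquitin and LC3-family proteins, averaged 85.3 ± 7.31 CPM in melanosome and 207 ± 5.41 CPM in control libraries (SD, n = 3 each; log2 fold change -1.28 ± 0.19, SE, edgeR adjusted p = 0.000232). USP8, a deubiquitinase, averaged 29.8 ± 1.82 CPM in melanosome and 56.5 ± 2.16 CPM in control libraries (SD, n = 3 each; -0.92 ± 0.18, SE, edgeR adjusted p = 0.00122). TOMM20, an import receptor, had a log2 fold change of -0.62 (edgeR adjusted p = 2.47e-05), and FBXL4, which limits BNIP3 and BNIP3L protein, of -0.64 (edgeR adjusted p = 0.000592). PHB1, the partner of PHB2, had one of 0.87 (edgeR adjusted p = 0.000342), and VDAC1, the outer membrane channel, of 0.62 (edgeR adjusted p = 7.3e-05).

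Between glabridin and control libraries, 3 import genes were higher and 4 lower, 5 ligases and deubiquitinases higher and 3 lower, 1 adaptor higher and 3 lower, 2 substrates higher and 1 lower, and 7 partners higher and 1 lower. The shares of all genes called there were 37.6% higher and 32.7% lower. The lower import count was 2 without control replicate 1 or 2 or glabridin replicate 1, the ligases gave 3 higher and 2 lower without control replicate 1 or 2, the higher substrate count was 1 without any single control replicate or glabridin replicate 1, and the lower partner count was 0 without control replicate 1 or 3. AMBRA1, a regulator of autophagy initiation, averaged 125 ± 6.72 CPM in glabridin and 71.6 ± 1.23 CPM in control libraries (SD, n = 3 each). Its log2 fold change was 0.81 ± 0.08 (SE, edgeR adjusted p = 5.94e-06). Among the lower genes, USP8 averaged 21.2 ± 6.99 CPM in glabridin and 56.5 ± 2.16 CPM in control libraries (SD, n = 3 each). TAX1BP1 averaged 99.9 ± 34.9 and 207 ± 5.41 CPM there (SD, n = 3 each). Their log2 fold changes were -1.41 ± 0.18 and -1.05 ± 0.19 (SE, edgeR adjusted p = 4.38e-05 and 0.000575).

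Since BNIP3 and BNIP3L are known to answer to hypoxia-inducible factors, 20 other hypoxia-inducible genes were set beside them. Between glabridin and melanosome libraries 5 were higher and 15 lower, with a median log2 fold change of -0.75, and on library totals alone 4 were higher and 15 lower. Beside them, 23.7% of all genes were called higher and 20.2% lower. EGLN3, a prolyl hydroxylase that marks hypoxia-inducible factors for destruction, was at 8.55, 6.83 and 7.97 CPM in glabridin libraries, at 57.3, 57.0 and 57.2 CPM in melanosome libraries and at 85.1, 85.2 and 87.0 CPM in control libraries. It was 7.33-fold lower with glabridin than with melanosomes alone (log2 fold change -2.87 ± 0.08, SE, edgeR adjusted p = 1.24e-08). Genes of lactate production and glycolysis were among the lower ones, with LDHA at -1.34 and PGK1 at -0.95 on the log2 scale (edgeR adjusted p = 6.32e-06 and 4.19e-05). VEGFA, the vascular growth factor, went against them at 250.2, 197 and 278 CPM in glabridin libraries and 64.5, 68.7 and 69.5 CPM in melanosome libraries (log2 fold change 1.84 ± 0.11, SE, edgeR adjusted p = 6.61e-07). VEGFA was among the 5 higher genes, while BNIP3 and BNIP3L were lower, as were 15 of the 20. Whether hypoxia-inducible factors had a part in these values was not tested.

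Between melanosome and control libraries, 9 hypoxia-inducible genes were higher and 4 lower, with a median log2 fold change of 0.21, and 13 were higher and 2 lower on library totals alone. Beside them, 29.5% of all genes were called higher and 33% lower. HK2, the hexokinase of the outer mitochondrial membrane, had the largest rise of the list, 1.34 ± 0.06 on the log2 scale (SE, edgeR adjusted p = 4.04e-08), beside 2.83 for BNIP3. PFKFB3, a regulator of glycolysis, had the largest fall, -0.62 ± 0.06 (SE, edgeR adjusted p = 4.82e-06). Between glabridin and control libraries 6 were higher and 12 lower, with BHLHE40, a transcriptional repressor, at 2.01 and EGLN3 at -3.46 (edgeR adjusted p = 8.42e-09 and 6.15e-10). In that comparison 37.6% of all genes were called higher and 32.7% lower. There BNIP3 was higher and BNIP3L lower.

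**Figure D5:**
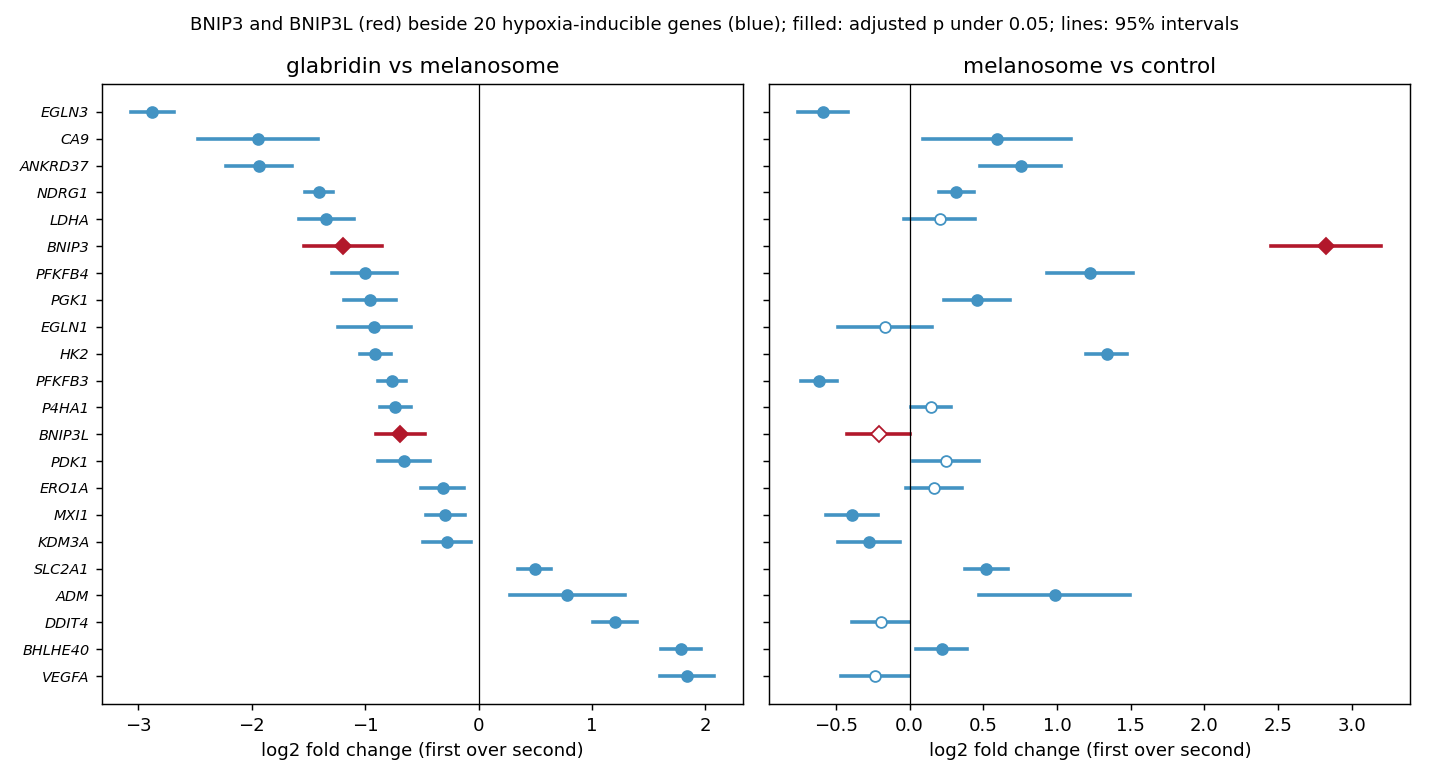
Log2 fold changes (x axis) of BNIP3 and BNIP3L (red diamonds) and 20 hypoxia-inducible genes (blue circles) for glabridin vs melanosome and melanosome vs control, filled where called, with 95% intervals. With glabridin 15 of the 20 genes lie left of 0, as do both receptors, and BNIP3 at 2.83 lies to the right of all 20 genes for melanosome vs control.

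Nuclear-encoded genes of mitochondrial proteins often used as markers of mitochondrial mass were counted as well. Of 12 such genes, 3 were higher and 1 lower between glabridin and melanosome libraries, 7 higher and 1 lower between melanosome and control libraries, and 8 higher and 2 lower between glabridin and control libraries. Of all genes, 23.7%, 29.5% and 37.6% were called higher and 20.2%, 33% and 32.7% lower in these comparisons. On library totals alone the first of the counts became 1 higher and 5 lower, and the next 10 higher and 1 lower. Without glabridin replicate 2 the first had 2 lower, and without glabridin replicate 1 the last had 1 lower. VDAC2 was higher and VDAC3 lower with glabridin than with melanosomes alone, at 0.53 and -0.60 on the log2 scale (edgeR adjusted p = 6.69e-05 and 0.000339). Mitochondrially encoded transcripts held 1.66% ± 0.180 of counts in glabridin, 2.59% ± 0.0754 in melanosome and 3.48% ± 0.128 in control libraries (SD, n = 3 each).

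BNIP3 had the widest range of group means among the 10 genes, 2.82 in log2 CPM. The genes whose log2 CPM followed it most closely over the 9 libraries, among 13911 others, were CORO1C (Pearson r = 0.998), ITGA5 (0.9962), TBC1D7 (0.9961), KCNAB2 (0.9957) and CTLA4 (0.9942). The libraries fall into 3 groups, so these values mainly describe the order and spacing of the group means. KCNAB2, a potassium channel subunit, was nearest in size, with log2 fold changes of -1.27 for glabridin vs melanosome and 2.76 for melanosome vs control (edgeR adjusted p = 3.12e-05 and 6.85e-08). CORO1C, a regulator of actin, had a smaller span, at 134, 157 and 134 CPM in glabridin libraries, 186, 184 and 188 CPM in melanosome libraries and 103, 102 and 99.2 CPM in control libraries. CTLA4 was at 0 in the control libraries and at most at 0.698 CPM elsewhere.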

How the data were processed

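Poly(A) RNA of HaCaT cells was sequenced as paired reads of strand-specific libraries, per the labels' protocols. The authors deposited whole-number counts, FPKM and TPM per gene, per the file headers, with the build hg38 per the submitters' processing notes; aligner, counting program and strand setting are stated in no source used here. Of 20263 identifiers, 20148 matched a symbol and 20224 had GENCODE 29 coordinates on GRCh38. Groups came from titles and treatment labels. The counts went into edgeR 4.0.16 under R 4.3.3 (TMM, filterByExpr, quasi-likelihood test, all 9 libraries, no replicate block), with Benjamini-Hochberg adjustment over all genes. The authors' TPM served to compare genes within a library. The authors' FPKM was read only to derive transcript lengths, which are not reported. Sequences are RefSeq's. The script was tested on simulated data. Standard errors derive from the F statistic. The 10 genes and the lists were chosen with earlier results of these data known. All 10 genes are named, with the 5 genes most correlated with the most variable member. Per list and comparison, some but not all of the called genes of the largest rise and fall are named. Other examples were picked after their values were seen. Alternatives were RLE factors, library totals alone, no filter, DESeq2 1.42.0, limma 3.58.1 on log2(TPM + 1) or log2(TPM + 0.1), only the groups compared, a replicate block, and leaving out each library. A gene of the lists is not reported here by name, though it stays in the counts.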

Additional observations from a re-analysis of the deposited data

How the results depend on the processing

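BNIP3 in all 3 comparisons, BNIP3L, USP30 and PGAM5 between glabridin and melanosome, BNIP3L, FKBP8, NIPSNAP1 and PGAM5 between glabridin and control, and FKBP8 between melanosome and control kept direction and call in each of 14 alternatives. With limma on log2(TPM + 1), the share of calls that were higher was 27.6% for glabridin vs melanosome and 68.5% for melanosome vs control. For glabridin vs melanosome, BCL2L13 turned to -0.0337 on library totals alone, -0.0393 with limma on log2(TPM + 1) and -0.0399 with limma on log2(TPM + 0.1), and the members called higher were 1, not 3, under RLE factors, library totals alone, DESeq2, both limma fits and the fit of only those groups. For melanosome vs control, members called higher were 7, not 4, on library totals alone and in both limma fits, and members called lower were 0, not 1, under these, RLE factors and DESeq2. The causes were not tested.

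Leaving out single libraries gave 2 to 3 members higher and 0 to 1 lower for melanosome vs control, 1 to 4 higher and 3 lower for glabridin vs melanosome, and 4 to 6 higher and 1 to 2 lower for glabridin vs control. Where an arm of a fit is short of a library, the spread is still pooled over all groups. Deviations from the group mean correlated at -0.234 to 0.05 between same-numbered replicates and at -0.198 to 0.273 between unlike-numbered ones. With 3 libraries a group, these values cannot show whether the numbers pair the samples. With a replicate block the genes called were 5523 for glabridin vs melanosome, 8255 for melanosome vs control and 9507 for glabridin vs control, against 6111, 8691 and 9774 without it, and BCL2L13 (glabridin vs melanosome, edgeR adjusted p = 0.103) and PGAM5 (melanosome vs control, edgeR adjusted p = 0.0525) were no longer called.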
